A study of Homo sapiens with 30 samples.

Results

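CYP27A1 and 7 further genes of oxysterol signalling and cholesterol handling were followed in 2 lymphoblastoid lines after low doses of radiation. The genes were chosen from a list, and each was read through the probe sets that the annotation of the Affymetrix human genome array gives to that symbol alone. CYP27A1 entered the list because its signal rose with dose in GM15036, so every value of it that involves GM15036 is given as a description with no test. The 8 genes stand among 11963 genes named on the array, and 7 of them (CYP27A1, ABCA1, ABCG1, NR1H3, NPC1, NPC2 and SOAT1) have 11 of its 22283 probe sets. NR1H2, the other liver X receptor, was not analysed here. Of the 11 probe sets, 8 passed a filter on dim signal and were tested, at least 1 for each of the 7 genes.

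The samples were established lymphoblastoid cell lines of human origin, GM15036 and GM15510 (B cells immortalised with Epstein-Barr virus), kept in suspension in MEM with serum and exposed to caesium 137 radiation. Each line was given 1, 2.5, 5, 7.5 or 10 cGy, with 3 arrays per line and dose, 30 in all. Doses are in cGy as in the sample labels, whereas the series' design text writes these numbers with Gy. No unirradiated cells were analysed here, so each dose was set against 1 cGy within its line, and whatever all 5 doses share cannot be seen. All groups of a line therefore share the same 3 control arrays. How long after irradiation RNA was isolated is not given here. Whether the 3 arrays of a group stand for separate cultures is not stated in the labels either, and p-values then measure only a spread between arrays that may be technical.

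Cells rid themselves of surplus cholesterol by converting it to oxysterols, by exporting it and by storing it as esters. CYP27A1 is the mitochondrial sterol 27-hydroxylase, which makes 27-hydroxycholesterol, an early step of the acidic route of bile acid synthesis and a ligand of the liver X receptors. Those receptors, NR1H3 (LXR alpha) and NR1H2 (LXR beta), pair with retinoid X receptors and raise transcription of the cholesterol exporters ABCA1 and ABCG1. NPC1 and NPC2 pass cholesterol out of the lysosome, and SOAT1 esterifies it in the endoplasmic reticulum. CYP27A1 and the ABC exporters are known chiefly from liver and macrophages.

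The promoters of the 3 genes with a dose or line difference below, CYP27A1, NPC1 and NPC2, are shown as the 250 bases before the start of each gene, read 5′ to 3′ on the strand of the gene, from a RefSeq table of build GRCh38.p14. These arrays carry no measurement at the promoters, so the sequences give context only. They lie at chr2:218781897-218782146 on the plus strand for CYP27A1, at chr18:23586507-23586756 on the minus strand for NPC1 and at chr14:74493513-74493762 on the minus strand for the first of 2 listed starts of NPC2. Capitals mark matches, on either strand, to the GC box GGGCGG and the CCAAT box CCAAT, and neither the E-box CACGTG nor the TATA box TATAAA was present in these 3 windows.
CYP27A1: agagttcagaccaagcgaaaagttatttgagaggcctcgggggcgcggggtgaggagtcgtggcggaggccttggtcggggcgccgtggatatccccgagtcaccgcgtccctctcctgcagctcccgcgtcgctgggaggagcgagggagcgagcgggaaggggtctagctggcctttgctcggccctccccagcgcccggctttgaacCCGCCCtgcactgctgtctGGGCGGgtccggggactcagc
NPC1: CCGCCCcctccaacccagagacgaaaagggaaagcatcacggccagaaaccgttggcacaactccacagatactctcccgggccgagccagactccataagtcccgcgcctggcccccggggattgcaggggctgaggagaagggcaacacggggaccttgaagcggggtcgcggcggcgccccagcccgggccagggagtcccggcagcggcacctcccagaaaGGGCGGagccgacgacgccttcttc
NPC2: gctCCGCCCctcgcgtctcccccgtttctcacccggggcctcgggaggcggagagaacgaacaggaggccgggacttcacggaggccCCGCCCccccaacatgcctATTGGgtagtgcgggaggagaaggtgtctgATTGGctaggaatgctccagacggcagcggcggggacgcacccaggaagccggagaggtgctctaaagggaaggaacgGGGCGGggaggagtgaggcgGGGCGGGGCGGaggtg
The CYP27A1 window held 2 GC boxes, the nearer 15 bases from the start, and 24 CG dinucleotides, against a median of 11 over 35116 promoters of this length. The NPC1 window held 2 GC boxes and the NPC2 window 5, which overlap in part, with 2 CCAAT boxes. Of all 35116 promoters, 42.6% held a GC box, 32.0% a CCAAT box, 6.34% the E-box and 10.7% the TATA box. A match is a description of letters, not of a bound site.

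The arrays themselves were uneven. Brightness, the trimmed mean of an array's signal before scaling, ran from 14.1 to 111.5 before all arrays were scaled to a common level of 50.9. In GM15036 it fell from 69.6 ± 10.2 (SD, n = 3) at 1 cGy to 49.8 ± 6.12, 51.3 ± 3.47, 32.4 ± 4.73 and 22.1 ± 10.4 at the 4 higher doses. GM15510 had 69.4 ± 10.5 at 1 cGy and, in order of dose, 18.7 ± 4.48, 39.0 ± 26.6, 67.7 ± 21.7 and 89.1 ± 23.6 above it. Of 10 B cell markers 9 had a probe set, and all 9 passed the filter. Of 10 monocyte and macrophage markers, 9 had a probe set and 2 passed (ITGAM and MSR1), while CD14, LYZ and CSF1R did not, and 0 of 6 hepatocyte markers passed.

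CYP27A1 was read by 1 probe set, 203979_at. In GM15036 its signal, scaled to the common brightness, was 7.50, 4.21 and 1.375 on the 3 arrays at 1 cGy. It was 14.3, 20.2 and 17.3 at 2.5 cGy and 28.7, 27.9 and 32.0 at 5 cGy. It was 40.9, 37.9 and 43.7 at 7.5 cGy and 31.0, 49.9 and 63.5 at 10 cGy. Every array at a higher dose lay above all 3 arrays at 1 cGy, and the 2.5, 5 and 7.5 cGy groups did not overlap one another, whereas the 10 cGy arrays spread across and beyond the 5 and 7.5 cGy values. The group means went from 4.36 ± 3.07 (SD, n = 3) at 1 cGy through 17.3 ± 2.97, 29.5 ± 2.21 and 40.8 ± 2.92 to 48.1 ± 16.3 at 10 cGy. On the log2(signal + 4) scale, which understates changes of dim probe sets, the differences from 1 cGy were 1.41, 2.07, 2.49 and 2.66 in order of dose, each with an SE of 0.41, and the slope was 0.268 log2 per cGy with an SE of 0.04.

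The higher doses also lay above 1 cGy, though by less, in the deposited signals. Those were 8.53, 6.20 and 2.05 at 1 cGy, where the 25th percentile of all deposited values was 3.41, and 12.1, 20.2 and 18.9 at 2.5 cGy. They were 31.0, 27.9 and 30.2 at 5 cGy, 30.4, 21.6 and 25.9 at 7.5 cGy and 11.2, 13.8 and 42.2 at 10 cGy. All 12 arrays above 1 cGy thus exceeded the 3 at 1 cGy before scaling as well, but the order among the higher doses differed. As ratios of group means to 1 cGy, the scaled signal gave 3.96, 6.77, 9.36 and 11 in order of dose and the deposited signal 3.05, 5.31, 4.65 and 4.0, while brightness stood at 0.716, 0.737, 0.465 and 0.317 of its 1 cGy level.

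**Figure D1:**
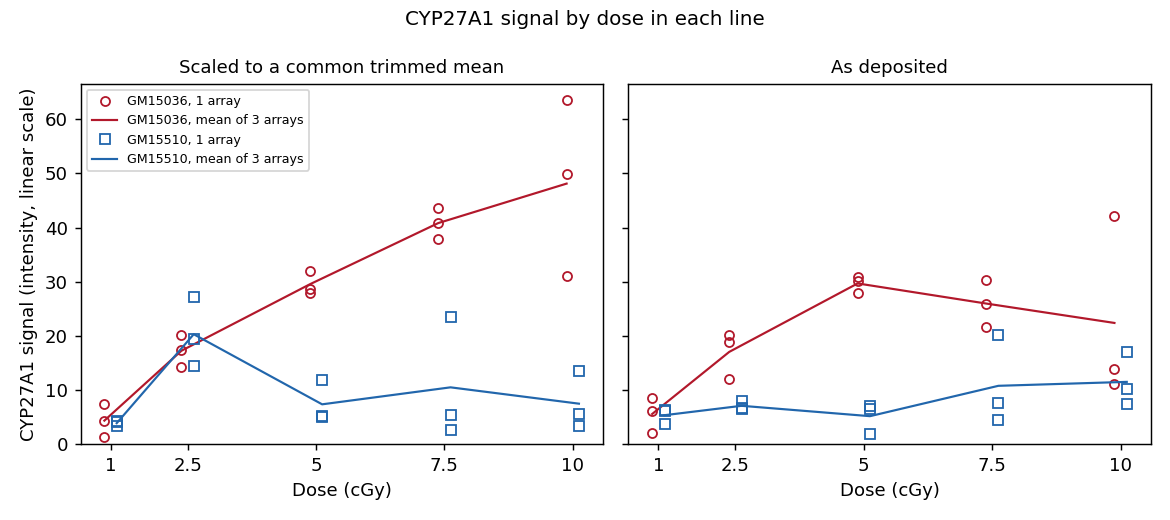
CYP27A1 signal (intensity, linear axis from 0) against dose in cGy, after scaling on the left and as deposited on the right, with 1 point per array and lines through the means of 3 arrays. In GM15036 the scaled mean went from 4.36 at 1 cGy to 48.1 at 10 cGy while the deposited mean was highest at 5 cGy. In GM15510 the scaled mean was highest at 2.5 cGy, at 20.3, and the deposited mean at 10 cGy, at 11.5.

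Brightness and CYP27A1 moved together in opposite directions. Over the 15 arrays of GM15036 the correlation of CYP27A1 with log2 brightness was -0.72, and over the 15 arrays of GM15510 it was -0.71, values given as descriptions because both follow the dose groups. At 2.5 and 5 cGy in GM15036 brightness was 43.3 to 55.4 and 47.9 to 54.9, and CYP27A1 14.3 to 20.2 and 27.9 to 32.0, while the log2 ratio of 3′ to 5′ ACTB control signal was 5.18 and 4.80 in mean. Among the 3 arrays at 10 cGy the brightest, replicate c at 33.8, held the highest CYP27A1 signal, 63.5. With brightness as a covariate the difference of 10 from 1 cGy was 1.87 (SE 0.58) in place of 2.66 and the slope 0.187 in place of 0.268. Without the 10 cGy arrays the slope was 0.354.

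**Figure D2:**
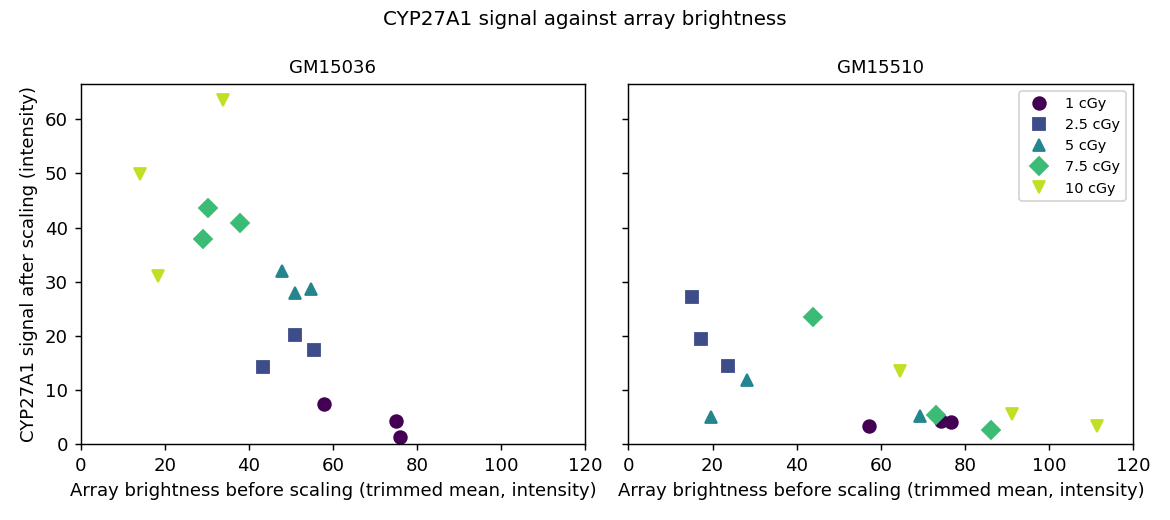
Scaled CYP27A1 signal (intensity) against array brightness before scaling (trimmed mean, intensity), with 1 point per array and the marker giving the dose, GM15036 on the left and GM15510 on the right. The correlation with log2 brightness was -0.72 in GM15036 and -0.71 in GM15510. In GM15510 1 array at 5 cGy, at brightness 19.5, held a CYP27A1 signal of 5.07, and the 2.5 cGy arrays of like brightness held 14.4 to 27.2. The log2 ratio of 3′ to 5′ ACTB control signal was 5.28 on that array and 3.81 to 4.71 on those at 2.5 cGy. The part of brightness in these values was not tested.

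Other signals moved with the GM15036 doses too. The log2 ratio of 3′ to 5′ ACTB control signal, a measure of RNA or cDNA length, was 4.22 ± 0.18 at 1 cGy and 5.18 ± 0.29, 4.80 ± 0.07, 5.15 ± 0.14 and 4.98 ± 0.13 at the higher doses, and that of GAPDH was 2.49 ± 0.17 at 1 cGy and 2.80 ± 0.11 at 10 cGy. The summed signal of the monocyte and macrophage list was 39.0 to 60.7 at 1 cGy, 45.45 to 89.35 at 5 cGy and 72.6 to 93.4 at 10 cGy, with CD14, LYZ and CSF1R at medians of 1.2, 0.764 and 7.67 over all 30 arrays. MSR1, the class A macrophage scavenger receptor, was higher at 10 than at 1 cGy by 1.60 (limma adjusted p = 0.046), as were the T cell marker CD3E by 1.36 (adjusted p = 0.0453) and the B cell factor PAX5 by 1.00 (adjusted p = 9.18e-08). HLA-DRA, an antigen-presenting molecule on the B cell list, was lower there (-0.97, adjusted p = 6.84e-07). The hepatocyte list summed to 32.9 to 35.8 at 1 cGy and 39.9 to 51.1 at 10 cGy, the T and NK cell list to 42.1 to 69.3 and 70.5 to 83.8, the fibroblast list to 46.2 to 81.1 and 53.4 to 108.5, and the B cell list to 1732 to 1753 and 2116 to 2266. The part of these signals in the CYP27A1 values was not tested. In these bulk samples, fewer cells of a type and less RNA per cell cannot be told apart.

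GM15510 gave values of CYP27A1 that the choice of genes did not use. Its scaled signal was 4.28, 3.33 and 4.05 at 1 cGy, 14.4, 19.3 and 27.2 at 2.5 cGy and 5.07, 11.9 and 5.17 at 5 cGy. It was 23.6, 2.625 and 5.33 at 7.5 cGy and 3.36, 5.67 and 13.4 at 10 cGy. After scaling, all 3 arrays at 2.5 cGy stood far above 1 cGy and those at 5 cGy slightly above. At 7.5 and 10 cGy single scaled signals were high while others overlapped 1 cGy. The difference of 2.5 from 1 cGy was 1.59 (SE 0.41, 95% CI 0.75 to 2.43, limma adjusted p = 0.0114), where 9.49% of all tested probe sets were called and 2 of the 8 tested here. The other doses gave 0.48, 0.60 and 0.45 in order (adjusted p = 0.639, 0.631 and 0.714). The filter that admitted CYP27A1 to these tests used its mean over all 30 arrays, so the GM15036 arrays that chose it took part. In GM15510 its log2(signal + 4) means were 2.98, 4.57, 3.46, 3.58 and 3.43 in order of dose, against a cut of 3.64. Averaged, these lie below the cut, so CYP27A1 was admitted only through its high GM15036 arrays. Its p-values in GM15510 are therefore not independent of the choice of the gene. There was no slope over dose that passed, -0.016 log2 per cGy with a 95% CI of -0.097 to 0.065 (adjusted p = 0.914), and 4.62% of all tested probe sets had one.

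The 2.5 cGy arrays of GM15510 were also among the dimmest of the series, with brightness of 15.03 to 23.7 against 57.3 to 76.6 at 1 cGy. The deposited CYP27A1 signals there were 6.70, 6.57 and 8.03 against 6.25, 3.75 and 6.09, a ratio of means of 1.32. At 5, 7.5 and 10 cGy the deposited ratios to 1 cGy were 0.966, 2.01 and 2.15, so 2.5 cGy was the highest dose only after scaling. The deposited signals at 10 cGy, 7.36, 10.15 and 17.0, all lay above those at 1 cGy. Brightness stood at 0.269, 0.562, 0.976 and 1.28 of its 1 cGy level in order of dose. With brightness as a covariate the difference of 2.5 from 1 cGy was 0.73 (adjusted p = 0.688). It also missed the threshold when each line was fitted alone (adjusted p = 0.0636) and without replicate 3 of the 2.5 cGy group (1.40, adjusted p = 0.0565). At 7.5 cGy the high array was the dimmest of its group, at brightness 43.8, and at 10 cGy likewise, at 64.5. At 5 cGy the dimmest array, at 19.5, lay within the brightness range of the 2.5 cGy arrays and held the lowest CYP27A1 signal of its group, 5.07. Its log2 ratio of 3′ to 5′ ACTB control signal was 5.28, against 4.71, 3.81 and 3.84 on the 2.5 cGy arrays. The part of brightness and of this ratio in these values was not tested. The monocyte and macrophage list summed to 57.7 to 126.9 at 2.5 cGy against 43.5 to 47.6 at 1 cGy and the hepatocyte list to 45.6 to 79.2 against 30.8 to 41.4, and the part of these in the result was not tested.

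Ordered by mean scaled CYP27A1 signal, both 1 cGy groups came lowest (GM15510 3.89 and GM15036 4.36), then GM15510 at 5, 10 and 7.5 cGy (7.37, 7.49 and 10.5). GM15036 at 2.5 cGy (17.3) and GM15510 at 2.5 cGy (20.3) followed. The highest 3 groups were GM15036 at 5, 7.5 and 10 cGy (29.5, 40.8 and 48.1). Neighbours in this order overlapped between arrays, apart from the steps from GM15510 at 2.5 cGy to GM15036 at 5 cGy and from there to 7.5 cGy. The difference of the slopes, GM15510 minus GM15036, was -0.284 log2 per cGy (SE 0.06), and the difference of the lines over all doses -1.12 (SE 0.18), both given without a test because the GM15036 arrays chose the gene. With brightness as a covariate the difference of the slopes was -0.145 (SE 0.09).

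The 6 probe sets of other genes whose log2 signal followed CYP27A1 most closely over the 15 GM15036 arrays were a pair for ACTB (200801_x_at and 213867_x_at), TRMT5, RBM41, ABCC1 and NSUN5. Their correlations with CYP27A1 were 0.92, 0.92, 0.91, 0.87, 0.855 and 0.85 in that order, as descriptions over arrays that share the dose groups and the brightness. Over the 15 GM15510 arrays the same probe sets gave 0.41, 0.36, 0.15, 0.02, 0.43 and 0.004. ACTB 213867_x_at was 644.9 to 677.3 at 1 cGy and 1339 to 1488 at 10 cGy in GM15036, and RBM41 19.5 to 25.7 and 42.8 to 54.9. The other 7 tested probe sets of the gene list ranged from -0.36 (ABCG1 204567_s_at) to 0.11 (NR1H3) in GM15036. Because the 6 above were picked as the highest of all tested probe sets, lower values in these 7 are no result. In GM15510 NPC2 reached 0.63, ABCG1 0.56 on 211113_s_at and 0.52 on 204567_s_at, and SOAT1 -0.56.

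The 7 other tested probe sets showed no called dose difference in GM15036. At 2.5, 5, 7.5 and 10 cGy and for the slope, 0 of 7 passed limma's adjusted threshold of 0.05, where 0.548%, 0.143%, 3.22%, 11.7% and 13.0% of all 13331 tested probe sets did. At an unadjusted p under 0.05 there were 3 at 7.5 cGy (NPC1, ABCG1 204567_s_at and SOAT1, all 3 lower) and 0 in the other comparisons. Of all 13331 probe sets, 2042 had such a p at 7.5 cGy. At 2.5, 5 and 10 cGy and for the slope 1262, 1063, 3223 and 3389 did. With median centring, NPC2 (-0.63, adjusted p = 0.00501) and SOAT1 (-0.87, adjusted p = 0.0347) were called lower at 10 cGy, and NPC2, SOAT1 and ABCG1 204567_s_at for the slope (-0.061, -0.105 and -0.070 log2 per cGy), where the medians of all tested probe sets were -0.375 and -0.036. As scaled here, the median difference of the 7 at 10 cGy was -0.04, against 0.03 over all tested probe sets. In GM15510, 0 of 8 passed at 5 and 10 cGy, with 0 at an unadjusted p under 0.05, where 4.19% and 5.91% of all probe sets were called, and 0 of 8 for the slope, with 2 unadjusted (NPC1 and ABCG1 211113_s_at). For the difference of the slopes 0 of 7 passed, with 1 unadjusted (SOAT1) and 10.8% called over all probe sets.

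**Figure D3:**
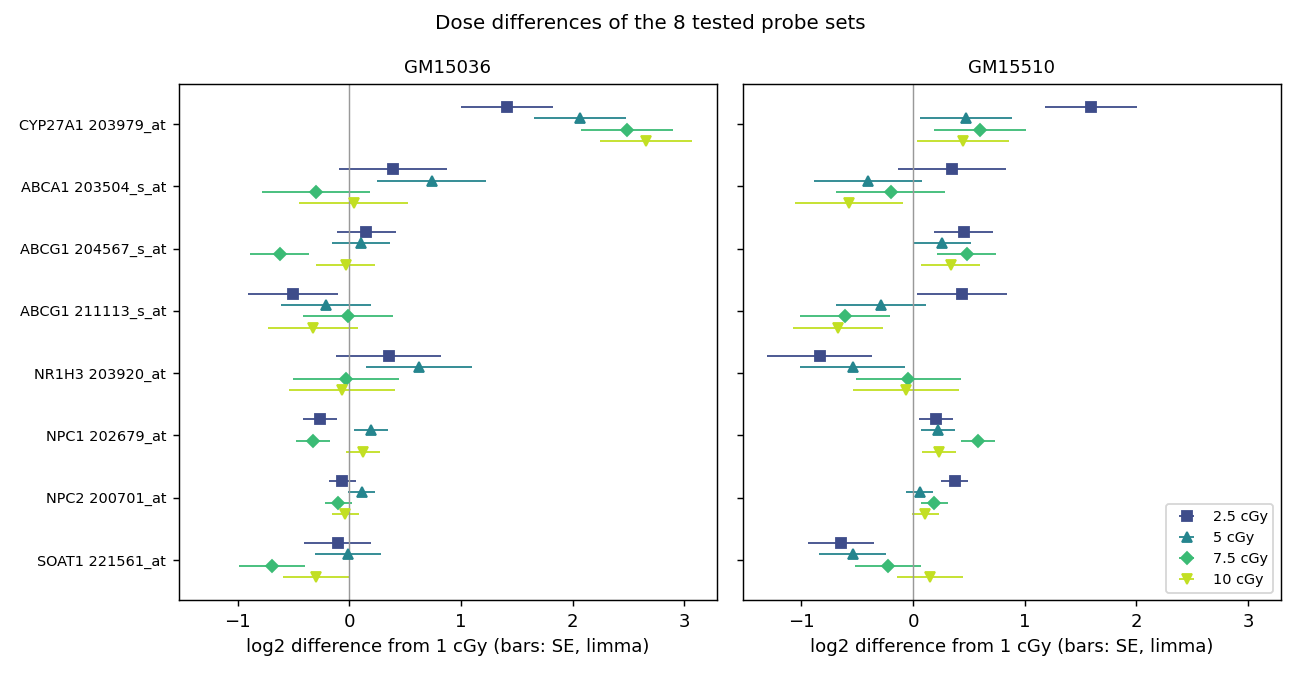
Difference of each dose from 1 cGy on the log2(signal + 4) scale, with bars of 1 SE from limma, for the 8 tested probe sets in GM15036 (left) and GM15510 (right). CYP27A1 in GM15036 (1.41 to 2.66) lies apart from the other probe sets of that line, which run from -0.69 to 0.74, and CYP27A1 at 2.5 cGy is the highest point in GM15510.

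NR1H3, the oxysterol-activated receptor, was dim and scattered. Its scaled signal in GM15036 ran from 2.90 to 19.4 with a median of 10.7 over 15 arrays, and in GM15510 from 1.12 to 14.6 with a median of 8.18. The group lowest in mean was GM15510 at 2.5 cGy, with 8.05, 1.40 and 3.65 against 8.18, 13.5 and 9.30 at 1 cGy. Those groups did not overlap, but the difference of -0.84 had an SE of 0.47 and did not pass (limma adjusted p = 0.293). At 5 cGy in GM15036 it was 13.3, 13.0 and 19.4, above all 1 cGy arrays of that line and likewise not called (0.62, SE 0.47, adjusted p = 0.854). How many of all tested probe sets have groups of 3 arrays that do not overlap was not counted. For this and the other genes such separation is therefore a description and no sign of a difference.

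Of the exporters, ABCA1 had 1 tested probe set of 3. ABCA1 203504_s_at was 4.01, 8.87 and 10.2 at 1 cGy in GM15036 and 0.809, 19.7 and 10.0 at 10 cGy, a difference of 0.04 (SE 0.49, limma adjusted p = 0.974). The highest ABCA1 group of GM15036 was 5 cGy, with 10.3, 15.4 and 20.5, above all 1 cGy arrays yet not called (0.74, SE 0.49, adjusted p = 0.791). In GM15510 it was 16.8, 8.87 and 12.1 at 1 cGy and 10.1, 16.1 and 27.5 at 2.5 cGy, groups that overlap. The untested probe sets 203505_at and 216066_at had medians of 5.94 and 8.67 in GM15036 and 2.75 and 3.35 in GM15510, and no array exceeded 23.6.

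ABCG1, which hands cholesterol to high-density lipoprotein, had a pair of tested probe sets, and they did not move alike. ABCG1 204567_s_at in GM15036 was 31.4, 24.6 and 42.6 at 1 cGy, 25.2, 20.6 and 14.0 at 7.5 cGy and 38.0, 24.9 and 32.3 at 10 cGy. Its lowest group, 7.5 cGy, overlapped 1 cGy through 1 array (-0.62, SE 0.26, limma adjusted p = 0.225). In GM15510 this probe set was 15.7, 24.5 and 21.9 at 1 cGy and 26.1, 27.5 and 26.8 at 10 cGy, groups that did not overlap (0.34, SE 0.26, adjusted p = 0.632). ABCG1 211113_s_at in GM15510 went the other way, with 15.4, 15.9 and 14.0 at 1 cGy, 18.4, 22.6 and 24.9 at 2.5 cGy and 7.25, 8.85 and 7.92 at 10 cGy. These 3 groups did not overlap, and neither the 10 cGy difference (-0.67, SE 0.40, adjusted p = 0.454) nor the slope (-0.108 log2 per cGy, SE 0.04, adjusted p = 0.124) passed.

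NPC1, the membrane protein of lysosomal cholesterol export, was bright on 202679_at, and its other probe set, 217584_at, was dim (medians 2.43 and 5.06 in GM15036 and GM15510) and not tested. In GM15510 it was 95.2, 98.5 and 111 at 1 cGy, 110, 130 and 114 at 2.5 cGy and 108, 105 and 147 at 5 cGy. It was 152, 156 and 154 at 7.5 cGy and 130, 106 and 124 at 10 cGy. The 7.5 cGy arrays lay close together (SD 2.00) and above every other GM15510 array, and NPC1 was higher there than at 1 cGy by 0.59 (SE 0.15, limma adjusted p = 0.0377). That was 1 of 8 tested probe sets in a comparison that called 1.79% of all. Brightness at 7.5 cGy, 67.7, was close to that at 1 cGy, 69.4. The call did not survive the loss of any of the 6 arrays compared: without GM15510 1 cGy replicates 1, 2 and 3 the adjusted p was 0.177, 0.118 and 0.0683, and without 7.5 cGy replicates 1, 2 and 3 it was 0.118, 0.0917 and 0.107, with differences of 0.54 to 0.65. It was lost as well with median centring (0.52, adjusted p = 0.413), without the filter (0.0604) and without an intensity trend (0.112).

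In GM15036 NPC1 202679_at had the opposite sign at 7.5 cGy, without a call. It was 160, 146 and 169 at 1 cGy, 123, 124 and 129 at 7.5 cGy, and 135, 252 and 150 at 10 cGy. The 7.5 cGy arrays lay below all 1 cGy arrays (-0.32, SE 0.15, limma adjusted p = 0.294), and at 10 cGy 1 array of 252 lay apart from the others. The difference of the slopes between the lines was 0.026 log2 per cGy (SE 0.02, adjusted p = 0.525), or 0.12 with median centring (adjusted p = 0.000568) and 0.102 without the 10 cGy arrays (adjusted p = 0.0189), and a difference between the lines at 7.5 cGy alone was not tested.

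NPC2, the soluble carrier that delivers cholesterol to NPC1, showed no called difference in GM15036, with 118, 151 and 140 at 1 cGy and 138, 131 and 127 at 10 cGy (-0.04, SE 0.12, limma adjusted p = 0.891). In GM15510 it was 83.6, 95.7 and 95.01 at 1 cGy, 132, 96.4 and 134 at 2.5 cGy and 95.5, 98.5 and 102 at 10 cGy. The 2.5 cGy group was higher than 1 cGy by 0.37 (SE 0.12, adjusted p = 0.0457), with replicate 2 just above the 1 cGy arrays. This call sat at the edge of the threshold and was lost when any of 12 arrays was left out, with adjusted p of 0.0514 to 0.191. These were GM15036 2.5 cGy replicates a, b and c, 5 cGy replicates a and b, GM15510 1 cGy replicates 1, 2 and 3, 2.5 cGy replicates 1 and 3 and 10 cGy replicates 1 and 2. With median centring the difference turned to -0.31 (adjusted p = 0.157), while the median of all tested probe sets moved to -0.495, so NPC2 lay above that median under both scalings. With brightness as a covariate it was 0.27 (adjusted p = 0.608). NPC2 also missed without the filter, without a trend, with array weights, with each line alone, with the replicate block and with the GAPDH ratio as a covariate (adjusted p = 0.0552 to 0.096).

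**Figure D4:**
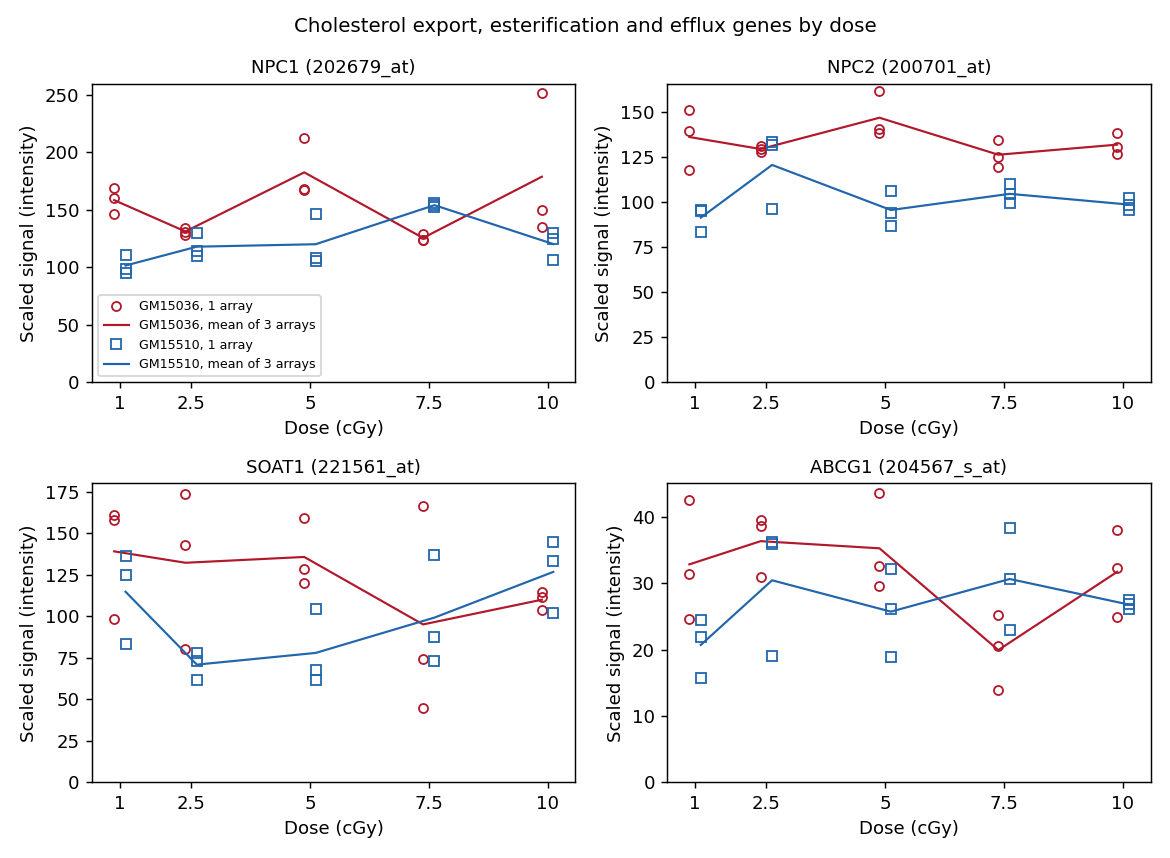
Scaled signal (intensity, axes from 0) against dose in cGy for NPC1, NPC2, SOAT1 and ABCG1 204567_s_at, with 1 point per array and lines through the means of 3 arrays. NPC1 in GM15510 is highest at 7.5 cGy (mean 154), and NPC2 in GM15510 lies below GM15036 at each dose in mean, with 91.45 against 136 at 1 cGy.

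SOAT1 turns cholesterol into its storage esters. In GM15036 it was 98.5, 161 and 158 at 1 cGy, 167, 44.7 and 74.1 at 7.5 cGy and 114, 104 and 112 at 10 cGy. The 7.5 cGy group spanned nearly the whole range of the line (-0.69, SE 0.30, limma adjusted p = 0.234). Without GM15036 7.5 cGy replicate a, the array at 167, the difference was -1.18 (adjusted p = 0.0109), the slope -0.072 (adjusted p = 0.0441) and the difference of the slopes 0.111 (adjusted p = 0.0292), against -0.051 (0.272) and 0.090 (0.171) with it. In GM15510 SOAT1 was 136, 83.6 and 125 at 1 cGy, 73.0, 61.5 and 78.2 at 2.5 cGy and 134, 145 and 102 at 10 cGy. The 2.5 cGy arrays were all below the 1 cGy arrays (-0.64, SE 0.30, adjusted p = 0.183). SOAT1 was called lower there with median centring (-1.28, adjusted p = 0.00149), where the median of all tested probe sets was -0.495, and with the GAPDH ratio as a covariate (-0.94, adjusted p = 0.0323).

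Averaged over the 5 doses, 2 of the 7 tested probe sets differed between the lines, where 47.2% of all tested probe sets did, so the count says little about these genes. NPC2 was lower in GM15510 by 0.39 on the log2 scale (SE 0.05, limma adjusted p = 3.35e-07), with medians over 15 arrays of 98.5 against 131. NPC1 was lower by 0.32 (SE 0.07, adjusted p = 0.00022), with medians of 114 against 146. The NPC2 difference passed with all alternatives and with any 1 array left out, whereas that of NPC1 missed with median centring (-0.17, adjusted p = 0.121) and with the GAPDH ratio as a covariate (adjusted p = 0.156). SOAT1 (-0.30, adjusted p = 0.0674), ABCG1 211113_s_at (-0.38, adjusted p = 0.0869), ABCG1 204567_s_at (-0.18, adjusted p = 0.216), NR1H3 (-0.28, adjusted p = 0.297) and ABCA1 (0.18, adjusted p = 0.531) did not pass. SOAT1 did pass without any of 5 arrays, GM15036 1 cGy replicate a, 2.5 cGy replicate a and 7.5 cGy replicate b and GM15510 5 cGy replicate 3 and 7.5 cGy replicate 2 (adjusted p = 0.0101 to 0.037). It passed as well with brightness (-0.39, adjusted p = 0.00981) or the GAPDH ratio (-0.67, adjusted p = 0.00242) as a covariate. ABCG1 211113_s_at passed without GM15036 5 cGy replicate a (0.0374) or GM15510 5 cGy replicate 2b (0.043).

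Around these genes stood 7 lists of partners and targets with 72 tested probe sets. In GM15036 at 10 cGy 1 probe set of the 72 was called higher and 8 lower, and in GM15510 at 2.5 cGy 2 were higher and 6 lower. That was 12.5% and 11.1%, near the shares of all probe sets, 11.7% and 9.49%. At 5 cGy in GM15036 and 7.5 cGy in GM15510 there were 0, where 0.143% and 1.79% of all probe sets were called. In GM15036 2 were lower at 2.5 cGy and 3 at 7.5 cGy, or 2.78% and 4.17% against 0.548% and 3.22%. In GM15510 2 were lower at 5 cGy, and 3 higher and 1 lower at 10 cGy, or 2.78% and 5.56% against 4.19% and 5.91%. Those at 5 cGy were OSBPL3 209627_s_at (-1.56, limma adjusted p = 0.0101) and LAMP1 201552_at (-0.475, adjusted p = 0.0023). Both missed with brightness as a covariate (adjusted p = 0.0785 and 0.0722). The slopes gave 2 higher and 7 lower in GM15036, or 12.5% against 13.0% of all probe sets. In GM15510 they gave 2 higher and 0 lower, or 2.78% against 4.62%. For the difference of the slopes 6 were higher and 2 lower, or 11.1% against 10.8%. Of the 15 probe sets for LXR partners and targets, among them APOE, MYLIP and SREBF1, 0 were called at 2.5, 5, 7.5 or 10 cGy in GM15036, where 0.548%, 0.143%, 3.22% and 11.7% of all probe sets were. At 10 cGy 4 of the 15 had an unadjusted limma p under 0.05, as had 3223 of all 13331 tested probe sets. In GM15510 1 was called, SCD 200832_s_at, the stearoyl-CoA desaturase, at 10 cGy (0.67, limma adjusted p = 0.0149), where 5.91% of all probe sets were. SCD did not pass without GM15510 1 cGy replicate 3 (0.45, adjusted p = 0.183), 10 cGy replicate 2 (0.0527) or 10 cGy replicate 3 (0.066). Of 4 probe sets for oxysterol and bile acid enzymes and their partners, 1 was lower at 10 cGy in GM15036, where 11.7% of all probe sets were called. It was HSD17B4, a peroxisomal enzyme of bile acid side-chain oxidation (-0.54, adjusted p = 0.000621), a gene picked with its value in view. FDX1, the ferredoxin that feeds electrons to mitochondrial P450 enzymes such as CYP27A1, was lower at 2.5 cGy in GM15510 on 203647_s_at (-0.59, adjusted p = 0.00195), though not with brightness as a covariate (adjusted p = 0.20). In that comparison CYP2R1, a vitamin D 25-hydroxylase, was lower (-1.16, adjusted p = 0.0225) and ESR2, an oestrogen receptor, higher (1.12, adjusted p = 0.0371). Neither passed with brightness as a covariate (adjusted p = 0.649 and 0.645), CYP2R1 also missed without GM15510 1 cGy replicates 2 or 3 or 2.5 cGy replicates 2 or 3 (0.0528 to 0.162), and ESR2 without any 1 cGy replicate or 2.5 cGy replicates 1 or 2 (0.0578 to 0.133). Probe sets of INSIG1, which holds back sterol synthesis, went in opposite directions there (0.88 on 201625_s_at and -0.53 on 201626_at). Both missed with brightness as a covariate (adjusted p = 0.203 and 0.69) and without GM15510 1 cGy replicate 1 (0.0578 and 0.0963). INSIG1 201625_s_at also missed with median centring (0.36, adjusted p = 0.219), and 201626_at without 1 cGy replicate 3 (0.108) or 2.5 cGy replicate 2 (-0.32, 0.225), without a trend (0.0744) and with quantile normalization (0.0716).

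Of the 25 probe sets for sterol transport within the cell, 1 was higher and 5 lower in GM15036 at 10 cGy, where 11.7% of all tested probe sets were called. The lowest was LAMP2, a lysosomal membrane protein, on 203041_s_at (-1.24, SE 0.39, limma adjusted p = 0.0347). It rested on single arrays, with an adjusted p of 0.415 without 10 cGy replicate a (-0.47). When the 1 cGy replicates a, b and c were left out one by one, it was 0.082, 0.0841 and 0.0819. With brightness as a covariate it was 0.40. LAMP2 200821_at was also called lower (-0.68, adjusted p = 0.0204) and missed with brightness as a covariate (0.86), while LAMP2 203042_at was not called. LIPA, the lysosomal acid lipase that frees cholesterol from its esters, had a scaled signal of 239 ± 19.0 (SD, n = 3) at 1 cGy, 171 ± 10.1 at 2.5 cGy and 166 ± 5.47 at 10 cGy. Its difference at 10 cGy was -0.51 (SE 0.09, limma adjusted p = 0.000247) and passed under all 42 settings, a gene singled out here after its values were seen. Outside the transport list, GPR183, a receptor for 7-alpha,25-dihydroxycholesterol on B cells, was 121.5 ± 4.82 at 1 cGy, 72.5 ± 11.3 at 2.5 cGy and 76.5 ± 10.8 at 10 cGy. It was called lower at 2.5, 7.5 and 10 cGy (-0.72, -0.59 and -0.65), at 10 cGy with an adjusted p of 0.00621 that was lost with brightness as a covariate (0.661) and without GM15036 10 cGy replicate a (0.0518). The calls at 2.5 and 7.5 cGy were lost without any 1 cGy replicate of the line and without replicates b and c of each dose (adjusted p = 0.0723 to 0.238). Both also missed with brightness as a covariate (adjusted p = 0.0616 and 0.47). INSIG2, which retains SCAP in the endoplasmic reticulum and belongs to the list for sterol feedback on synthesis, was lower by 0.71 at 10 cGy (adjusted p = 0.00519, with brightness as a covariate 0.0588). OSBPL3, an oxysterol-binding protein relative, was the 1 transport probe set called higher at 10 cGy, by 0.62 on 209626_s_at. With median centring its difference was -0.004, where the median of all probe sets was -0.375. With brightness as a covariate its adjusted p was 0.0778.

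Between the lines 11 of the 72 probe sets were higher and 29 lower in GM15510, or 55.6% against 47.2% of all. RXRA, the partner of the liver X receptors, was lower by 1.02 (SE 0.09, limma adjusted p = 2.38e-11), with 54.2 ± 15.2 in GM15036 and 20.6 ± 2.98 in GM15510 at 1 cGy. OSBPL8, a lipid transfer protein of membrane contacts, was higher by 1.01 on 212582_at (adjusted p = 8.05e-10), LAMP2 by 1.02 on 203041_s_at (adjusted p = 1.16e-05), and OSBPL3 was lower by 1.04 on 209627_s_at (adjusted p = 3.05e-06). Of the 11 probe sets for sterol feedback on synthesis 8 were lower in GM15510 and 0 higher, for example SCAP (-0.42), MBTPS1 (-0.44) and HMGCS1 (-0.44), examples chosen after their values were seen. With median centring these examples passed (limma adjusted p = 0.0353, 0.00862 and 0.0145). The others missed, namely SREBF2 (0.0679), INSIG2 (0.662) and INSIG1 on 201625_s_at, 201626_at and 201627_s_at (0.115, 0.68 and 0.163).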

How the data were processed

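RNA of 30 samples was hybridised to 1 array each, labelled by a 3′ in vitro transcription method, per the labels' protocols, after T7 amplification, per the series' design text. Per the submitters' processing notes, the authors used MAS5, and what they deposited is a signal intensity, not logged, for each probe set. The version and scaling settings are not given in the sources used here, and detection calls were not used here. Of 22283 probe sets, 19071 had 1 symbol, 1043 several and 2169 none, in the platform annotation, which can be old, and 19059 gene IDs were updated through a RefSeq table (GRCh38.p14). Levels of different probe sets were not compared.

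Brightness differed 7.91-fold, so each array was scaled to a common trimmed mean (2 to 98 percent of values, 50.9), 4 was added and log2 taken. Control probe sets and those with a mean log2 value at or below the 40th percentile (3.64) were left out, which left 13331. limma 3.58.1 in R 4.3.3 (lmFit on 10 groups, eBayes with an intensity trend, 20 residual and 12.3 prior degrees of freedom) gave two-sided p-values, adjusted by Benjamini-Hochberg over all 13331, with a threshold of 0.05. The slope is a contrast of the 5 group means on dose. The number of arrays limits the precision. No pair of arrays held identical values, and correlations within groups were 0.90 to 0.97. The code was tested on simulated data.

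All probe sets of the listed genes are named. Of the pathway lists, up to 4 genes per comparison with the largest change past the threshold were to be named. For some comparisons, such as the difference of the slopes, only counts are given. The text says where other genes were added. The genes most like CYP27A1 are the 6 highest Pearson correlations over the GM15036 arrays. The genes, lists and tests were chosen with earlier results of these data known. Alternatives were quantile normalization, median centring, pseudocounts of 1 and 16, no filter and a 60th percentile filter, no trend, array weights, each line alone, a replicate block, brightness or the GAPDH ratio as a covariate, no 10 cGy arrays for slopes, and each array left out in turn.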

Additional observations from a re-analysis of the deposited data

How the results depend on the processing

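Counts of called probe sets among the 7 or 8 tested moved as follows. With median centring they were 2 at 10 cGy and 3 for the slope in GM15036 (both 0 in the main setting), 0 at 7.5 cGy and 1 for the slope in GM15510 (1 and 0), 4 for the difference of the slopes (0) and 1 for the difference of the lines (2), and the medians of all tested probe sets were then -0.375, -0.036, -0.067, 0.025, 0.061 and 0.062 in that order. At 2.5 cGy in GM15510 the count of 2 became 1 without the filter, with the 60th percentile filter (at which CYP27A1 is not tested), without a trend, with array weights and with the replicate block, and 0 with each line alone and with brightness as a covariate. It stayed at 2 with median centring and with the GAPDH ratio as a covariate, but SOAT1 was then called in place of NPC2. At 7.5 cGy in GM15510 the count of 1 became 0 without the filter, without a trend and with the replicate block. Without the 10 cGy arrays NPC1 was called for the slope in GM15510 (1, with 0.080 log2 per cGy) and for the difference of the slopes (1). Leaving out 1 array gave 0 to 1 at 7.5 cGy and for the slope in GM15036, 0 to 2 at 2.5 cGy and 0 to 1 at 7.5 cGy in GM15510, and 0 to 1 for the difference of the slopes. NPC2 at 2.5 cGy in GM15510 changed sign with median centring (-0.31). In all, 127 of 145 counts under other settings and 339 of 360 with an array left out stayed within 1.5 times the main count. Most main counts were 0 and many left-out arrays belonged to the other line, so these totals say little about the calls made. In GM15510 the call of NPC1 at 7.5 cGy was lost in 10 of 42 settings. That of NPC2 at 2.5 cGy was lost in 19 of 42, and its difference was reversed in 1. In deviations from the group means, none of 30 pairs of arrays with the same replicate label per line correlated over 0.1 (-0.06 to 0.04 in GM15036 and -0.06 to 0.10 in GM15510). Such correlations cannot show whether the labels stand for shared cultures or batches. The replicate block moved the adjusted p of NPC2 at 2.5 cGy to 0.0595, of NPC1 at 7.5 cGy to 0.0506 and of CYP27A1 at 2.5 cGy in GM15510 to 0.0195. The size of the CYP27A1 difference of 10 from 1 cGy in GM15036 ran from 1.63 with a pseudocount of 16 to 3.32 with a pseudocount of 1. The causes of these shifts were not tested.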
